A study of Mus musculus with 8 samples.

Results

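The 39 genes described here encode the enzymes and carriers of mitochondrial and peroxisomal fatty acid oxidation, measured in gonadal white fat of Rap1-/- and wild-type (WT) mice. They were listed by their known place in the pathway, with earlier results of these data known. A gene was measured when at least 1 of its probes, named through the RefSeq transcript it was designed on, was well above background on 4 or more of the 8 arrays, and the brightest such probe stood for the gene. All 39 were measured, and each was well above background on all 8 arrays, among 25065 genes or features tested. By known location, 21 of the products are mitochondrial, 10 are peroxisomal, and 8 act in both, elsewhere in the cell or in a place that is less settled.

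Fatty acids are first activated by joining them to coenzyme A. Long chains then enter mitochondria through the carnitine shuttle, where a repeating spiral of dehydrogenation, hydration, dehydrogenation and thiolysis shortens them, and the electron transfer flavoprotein passes on the electrons of the first step. Peroxisomes run a parallel spiral on very long and branched chains, beginning with an oxidase that makes hydrogen peroxide. Many of these genes are known targets of the PPAR nuclear receptors, and in white fat they share the acyl-CoA pool with triglyceride synthesis.

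The gene deleted in these mice, Terf2ip, encodes the telomere-binding protein RAP1. The study profiled fat at 10 weeks of age, before the knockout mice gained excess weight, to look for changes in transcription that precede obesity. Gonadal white fat of 4 Rap1-/- and 4 WT mice was hybridised to one-colour arrays, with 1 array for each mouse. Per the study's methods the mice were females of a mixed C57BL6/129SV background. The knockout is constitutive and affects the whole body. It came from a Rap1 flox/flox line crossed to mice with cre under the adenovirus EIIa promoter, which acts in the early embryo, and the cre allele was then bred out. Fat cells and all other cells of these mice thus lack the gene. On 1 probe of the deleted gene the 4 WT arrays were well above background and the 4 Rap1-/- arrays were not, so the labels and the arrays matched. The gene's other probe read higher in Rap1-/-, and the part of the transcript each probe covers was not examined.

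The 75th percentile of the signal ranged from 302 to 497 intensity units and the share of spots well above background from 59.7% to 65.2%. Saturation affected 0 spots. Both genotypes were on both slides, replicates 1 and 2 on slide 1 and replicates 3 and 4 on slide 2. On each slide the WT arrays held positions 1 and 2 and the Rap1-/- arrays positions 3 and 4, so array position and genotype cannot be told apart. Adipoq, Plin1 and Fabp4, which define fat cells, were well above background on all 8 arrays. Markers of skeletal muscle differed widely between arrays of the same genotype, as given with Cpt1b below. In whole fat, fewer cells of a type and less RNA per cell cannot be told apart. Levels are log2 signal minus the 75th percentile of the array, differences are Rap1-/- minus WT with the standard error from limma, and adjusted p is by Benjamini-Hochberg over all features. The precision of each value is limited by the number of arrays.

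No single gene of fatty acid oxidation passed the test for a difference between the genotypes, while most of them had a slightly lower mean in Rap1-/-. Of the 39 genes, 0 had a limma adjusted p under 0.05, and the smallest was 0.874; over all features 1 of 25065, or 0.00399%, passed. At an unadjusted limma p under 0.05 there were 3, the electron carrier subunit Etfb, the dehydrogenase Hadh and the peroxisome division factor Pex11a, all lower in Rap1-/-, against 4.98% of all features in either direction and 3.31% in the lower one. The means were lower in Rap1-/- for 31 of 39 genes (79.5%), beside 59.9% of all features. Among 5336 other features between the quartiles of the mean level of these genes, 64.1% had a lower mean. The median difference was -0.09 over the 39 genes and -0.04 over all features tested, and the median standard error of a single gene was 0.12. Of 10 markers of the fat cell itself 9 also had lower means, with a median of -0.24 over the 10, while Lep was higher at 0.63 ± 0.31.

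In both compartments most means were lower in Rap1-/-, as were 59.9% over all features. Of the 21 mitochondrial genes 16 had a lower mean, with a median of -0.09 and differences from -0.31 for Etfb to 0.14 for Cpt1a. Of the 10 peroxisomal genes 9 had a lower mean, with a median of -0.13 and differences from -0.45 for Pex11a to 0.03 for Acox3. The 9 included Crot at -0.0007, and the signs of Crot and Hsd17b4 turned under some alternatives. The 8 genes of mixed or other location had 6 lower means and a median of -0.05, from -0.45 for Acsl1 to 0.11 for Ech1. The difference between the compartments was not tested. When the arrays were scaled to the E1A spike-in controls instead, the median over all features moved to 0.19, that of the 39 genes to 0.13, that of the mitochondrial genes to 0.13 and that of the peroxisomal genes to 0.09. That scaling adds 0.22 to every difference, and 10 of the 39 genes then had lower means, beside 14.5% of all features. These were Etfb, Hadh, Hadhb, Acadvl, Acads, Cpt2, Acsl1, Acot1, Pex11a and Ehhadh. The sign of each median therefore rests on the scaling. Because every feature is moved by the same amount, the place of each median below that of all features could not change. The counts of lower means that follow are on the 75th percentile scaling.

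**Figure D1:**
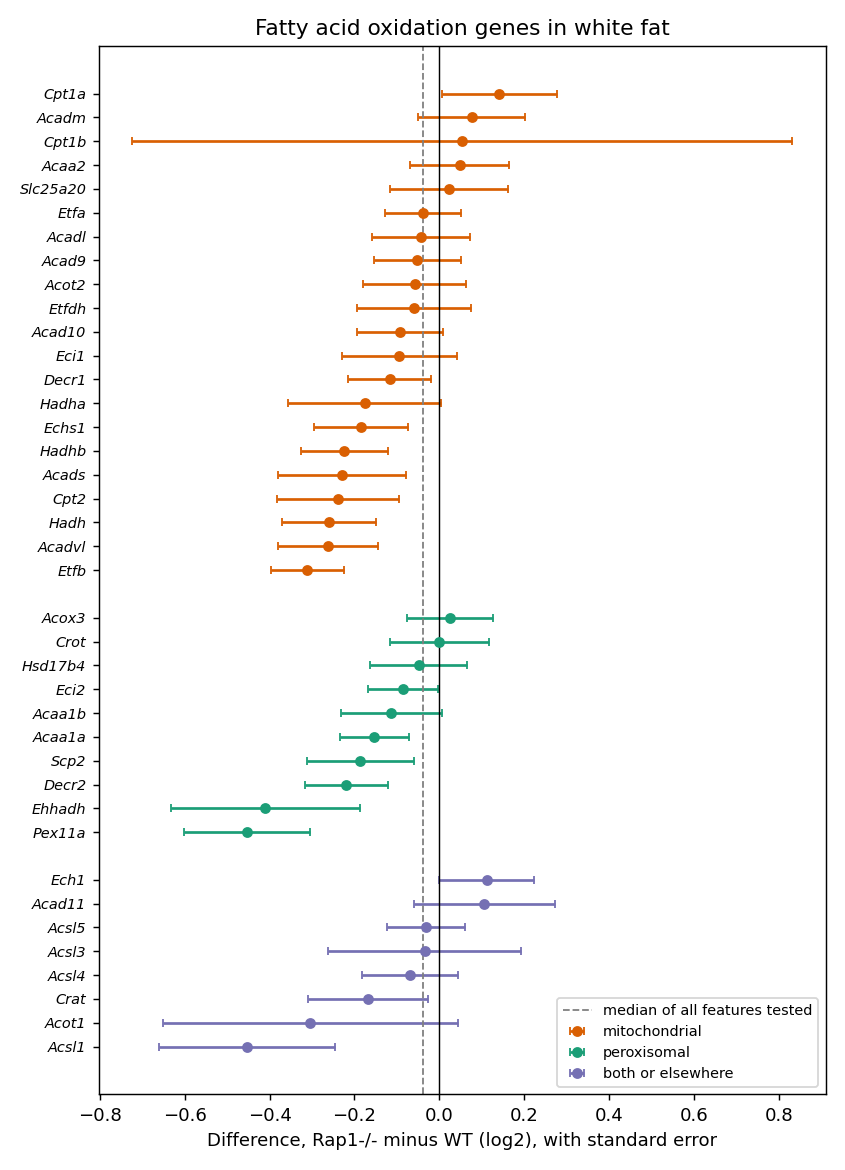
Difference in level between Rap1-/- and WT fat (log2, horizontal axis) for each of the 39 genes (vertical axis), coloured by the location of the product; points are limma differences and bars are standard errors, with 4 arrays of each genotype. Most points lie left of 0, with Acsl1, Pex11a and Ehhadh farthest, and the dashed line marks the median of all features at -0.04.

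Etfb, with the smallest p of the 39 on this scaling, encodes the beta subunit of the electron transfer flavoprotein, which takes electrons from the acyl-CoA dehydrogenases. Etfb levels were 7.18, 7.25, 7.19 and 7.37 on the Rap1-/- arrays and 7.65, 7.44, 7.62 and 7.53 on the WT arrays, replicates 1 to 4 in each case. On this scaling every Rap1-/- array was below every WT array, the highest knockout array, replicate 4, being just under the lowest WT array, replicate 2. With scaling to the E1A controls, which lowers WT replicate 3 the most, the genotypes overlapped. The difference was -0.31 ± 0.09, a 1.24-fold lower mean (limma unadjusted p = 0.00668, adjusted p = 0.874), and the two-sided exact permutation test gave p = 0.0286, the smallest that 4 against 4 arrays allow. Among all features 2.36% had every Rap1-/- array below every WT array; among the 39 genes there were 2, Etfb and Pex11a. Within slide 1 the Etfb difference was -0.33 and within slide 2 -0.29. Quantile normalisation gave -0.17 (limma unadjusted p = 0.0564) and the deposited values -0.20 (limma unadjusted p = 0.0657), where Pex11a had the smaller p. With the mean of 10 fat cell markers on each array as a covariate, an alternative chosen once the data had been seen, the Etfb difference was -0.34 ± 0.13 (limma unadjusted p = 0.0345). That mean was itself lower on every Rap1-/- array than on every WT array. Differences given with this covariate, here and below, therefore cannot fully tell the marker mean from the genotype.

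The other parts of the same electron path had smaller differences, though their contrast with Etfb was not tested. Etfa, the alpha subunit that pairs with Etfb, differed by -0.04 ± 0.09, and its second probe by 0.12 ± 0.15 in the opposite direction. Etfdh, the oxidoreductase that hands the electrons to ubiquinone, stood at 3.90, 4.03, 3.79 and 4.26 in the knockouts and at 4.31, 4.00, 3.86 and 4.04 in the WT mice. Its highest arrays were WT replicate 1 and Rap1-/- replicate 4, the genotypes overlapped, and the difference was -0.06 ± 0.13.

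The mitochondrial spiral proper was represented by 5 genes, 4 of them with lower means and a median of -0.18. Hadh encodes the 3-hydroxyacyl-CoA dehydrogenase for short and medium chains. Its levels were 5.33, 5.41, 5.48 and 5.41 in Rap1-/- fat and 5.76, 5.38, 5.85 and 5.69 in WT fat. Of the WT arrays, 3 exceeded all 4 knockout arrays, and WT replicate 2 lay among them. The difference was -0.26 ± 0.11, a 1.20-fold lower mean (limma unadjusted p = 0.0473, adjusted p = 0.874; two-sided exact permutation p = 0.114), and -0.20 ± 0.17 with the fat cell covariate.

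Hadha and Hadhb encode the alpha and beta subunits of the mitochondrial trifunctional protein, which carries out the last steps of the spiral on long chains. Hadhb was at 5.41, 5.49, 5.35 and 5.67 on the knockout arrays against 5.86, 5.65, 5.57 and 5.73 on the WT arrays, with only Rap1-/- replicate 4 reaching into the WT range, a difference of -0.22 ± 0.10, or -0.26 ± 0.16 with the fat cell covariate. Hadha differed by -0.18 ± 0.18 with more spread: its means were 1.90 ± 0.31 for the knockouts and 2.08 ± 0.24 for WT (SD, n = 4), and its lowest array, Rap1-/- replicate 1, and highest, Rap1-/- replicate 4, were of the same genotype. Without those arrays in turn the Hadha difference was -0.07 and -0.31. Echs1, the short-chain enoyl-CoA hydratase, differed by -0.18 ± 0.11, and the thiolase Acaa2 by 0.05 ± 0.12. The genes of the trifunctional protein lie head to head, and their annotated starts leave 272 bases between them. That stretch is shown because it is upstream of both, with Hadha read to the left and Hadhb to the right (RefSeq, GRCm38.p6, chr5:30154981-30155252, plus strand).
Hadha and Hadhb: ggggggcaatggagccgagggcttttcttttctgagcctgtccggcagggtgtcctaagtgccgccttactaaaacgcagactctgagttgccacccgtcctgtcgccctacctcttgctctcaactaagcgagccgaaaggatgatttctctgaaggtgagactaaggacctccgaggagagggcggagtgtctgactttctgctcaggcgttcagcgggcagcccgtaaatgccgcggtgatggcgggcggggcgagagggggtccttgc
Across the 8 arrays the levels of this pair had a Pearson correlation of 0.65, while the median over all 741 pairs of the 39 genes was 0.31. Genes on the same array share its scaling, so such values describe these arrays and no more.

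The acyl-CoA dehydrogenases, which open each turn of the spiral, numbered 7, and 5 of them had lower means with a median of -0.05. Acadvl, for very long chains, read 5.98, 6.29, 6.17 and 6.41 in knockout fat and 6.66, 6.34, 6.43 and 6.47 in WT fat. The highest knockout array, replicate 4, overlapped with the lowest WT array, replicate 2, and the difference was -0.26 ± 0.12. Acads, for short chains, stood at 2.16, 1.57, 2.07 and 2.25 in the knockouts and at 2.28, 2.13, 2.19 and 2.36 in the WT mice. Rap1-/- replicate 2 was far below the others, the remaining arrays overlapped, and the difference was -0.23 ± 0.15, or -0.08 without that array. For medium chains Acadm was 0.08 ± 0.13, and for long chains Acadl was -0.04 ± 0.12. The less studied members Acad9, Acad10 and Acad11 were at -0.05 ± 0.10, -0.09 ± 0.10 and 0.11 ± 0.17.

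**Figure D2:**
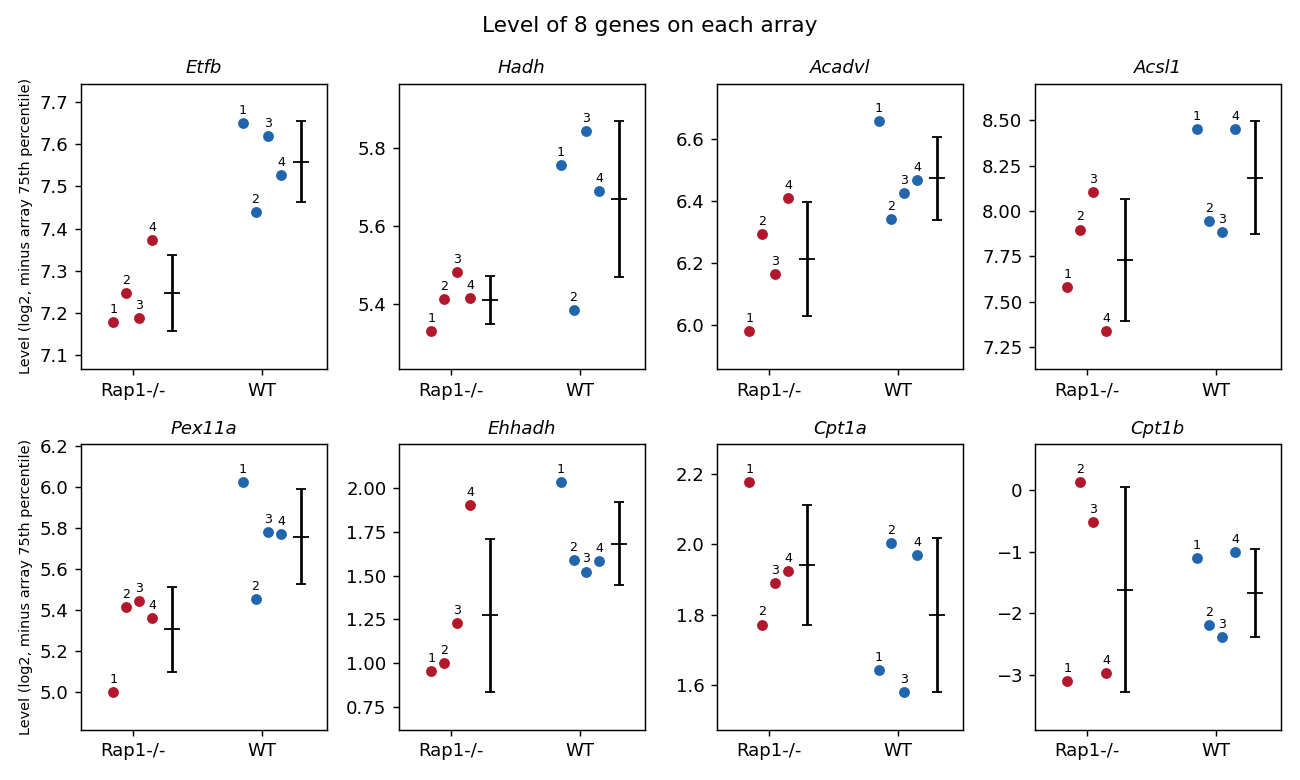
Level of 8 of the genes on each array (log2 signal minus the array's 75th percentile, vertical axis) in Rap1-/- (red) and WT (blue) fat; numbers are replicates, and the black bars are the mean and SD of 4 arrays. On this scaling Etfb and Pex11a separate the genotypes, and Cpt1a and Cpt1b do not. The vertical axis differs between panels and does not start at 0.

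Activation of fatty acids was covered by 4 long-chain acyl-CoA synthetases, all 4 with lower means but a median of only -0.05. Acsl1, the main form in fat cells, had the largest difference of the 4. It was at 7.58, 7.90, 8.10 and 7.34 on the knockout arrays against 8.45, 7.94, 7.89 and 8.45 on the WT arrays. WT replicates 1 and 4 were the highest and Rap1-/- replicates 4 and 1 the lowest, while WT replicates 2 and 3 fell among the knockout arrays. The difference was -0.45 ± 0.21, with a limma 95% interval of -0.93 to 0.02. A second Acsl1 probe followed the first across arrays (r = 0.99) and gave -0.57 ± 0.24 (limma unadjusted p = 0.0407). With the fat cell covariate the Acsl1 difference was -0.03 ± 0.22. Acsl4, which favours arachidonic acid, read 2.30, 2.34, 2.08 and 2.48 in knockout fat and 2.50, 2.47, 2.25 and 2.26 in WT fat, overlapping throughout, with a difference of -0.07 ± 0.11. Acsl3 and Acsl5 were at -0.03 ± 0.23 and -0.03 ± 0.09.

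The thioesterases reverse this activation. Acot1, the cytosolic form, stood at -1.66, -1.39, -0.47 and -1.87 in the knockouts and at -0.89, -0.39, -1.49 and -1.40 in the WT mice, a difference of -0.30 ± 0.35. Rap1-/- replicate 3 and WT replicate 2 were both high and the genotypes overlapped. Without the former the difference was -0.60 and without the latter -0.09. Acot2, the mitochondrial form, was at -0.44, -0.59, -0.57 and -0.59 on the knockout arrays against -0.33, -0.35, -0.82 and -0.47 on the WT arrays, a difference of -0.06 ± 0.12, with WT arrays at both ends of the range. Acot1 and Acot2 are near copies, as are the peroxisomal thiolases Acaa1a and Acaa1b, and how far each probe reads its partner was not tested.

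In the carnitine shuttle 2 of 5 genes had lower means and the median was 0.02. Cpt1a encodes the outer membrane enzyme that controls entry of long chains, in the form found in liver and fat. Its levels were 2.18, 1.77, 1.89 and 1.92 in Rap1-/- fat and 1.64, 2.00, 1.58 and 1.97 in WT fat. Rap1-/- replicate 1 was highest and WT replicates 3 and 1 lowest, with overlap between them, and the difference of 0.14 ± 0.14 had a 95% interval of -0.17 to 0.45. It ran from 0.06 without Rap1-/- replicate 1 to 0.21 without WT replicate 2. On this scaling it was the highest of the 39, but with the deposited values Acad11 at 0.20, Ech1 at 0.19 and Acadm at 0.19 exceeded Cpt1a at 0.18. Its second probe gave 0.16 ± 0.18. Cpt2, the inner membrane partner that rebuilds acyl-CoA, read 4.55, 5.01, 4.77 and 5.04 in knockout fat and 5.28, 4.90, 4.93 and 5.22 in WT fat, overlapping, with a difference of -0.24 ± 0.14, though its other probe gave 0.01 ± 0.16. Crat, which handles short chains, stood at -0.29, -0.40, -0.04 and 0.02 in the knockouts and at 0.29, 0.01, -0.13 and -0.19 in the WT mice, a difference of -0.17 ± 0.14 with overlap. The carnitine-acylcarnitine translocase Slc25a20 was at 0.02 ± 0.14.

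Cpt1b, the form of carnitine palmitoyltransferase 1 found in muscle, was far more variable than any other of the 39 genes. It was at -3.10, 0.14, -0.52 and -2.97 on the knockout arrays against -1.10, -2.19, -2.39 and -1.0037 on the WT arrays. The highest arrays, Rap1-/- replicates 2 and 3, and the lowest, Rap1-/- replicates 1 and 4, were all knockouts and enclosed the WT arrays. The difference was 0.05 ± 0.78 (95% interval -1.73 to 1.84), and the range over the 8 arrays was 3.24 log2 units, beside 1.48 for the next most variable gene, Acot1. Leaving out Rap1-/- replicate 2 turned it to -0.53 and leaving out replicate 1 raised it to 0.55.

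Over the same arrays the mean of 15 skeletal muscle markers, each centred on its own mean, was -3.38, 3.09, 1.96 and -4.25 in Rap1-/- and 1.67, 0.04, -0.79 and 1.66 in WT. Of the 15 markers 13 had a lower mean in Rap1-/-, with a median difference of -1.15. Among these markers Mylpf and Myh4 were well above background on 2 of the 4 Rap1-/- arrays and Ckm on 3, and all 3 were so on the 4 WT arrays. Cpt1b followed this mean with a Pearson r of 0.95 (exact permutation p = 0.000446, Benjamini-Hochberg adjusted p over the 39 genes = 0.0174) and a Spearman rho of 0.95 (exact permutation p = 0.00114, adjusted p = 0.0445). Without the 2 arrays farthest from the median, Rap1-/- replicates 4 and 1, r was 0.98, and within the slides it was 0.96 and 0.95. The arrays form no separate genotype clusters on this axis, since knockout arrays sit at both ends. No other gene of the 39 passed after adjustment: the next, Acsl1, had r = 0.80 (adjusted p = 0.402), which was 0.29 without the same 2 arrays. Cpt1a had r = -0.41 (exact permutation p = 0.311, adjusted p = 0.809). With the muscle mean as a covariate the Cpt1b difference was 0.64 ± 0.16 (limma unadjusted p = 0.00429, adjusted p = 0.876).

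**Figure D3:**
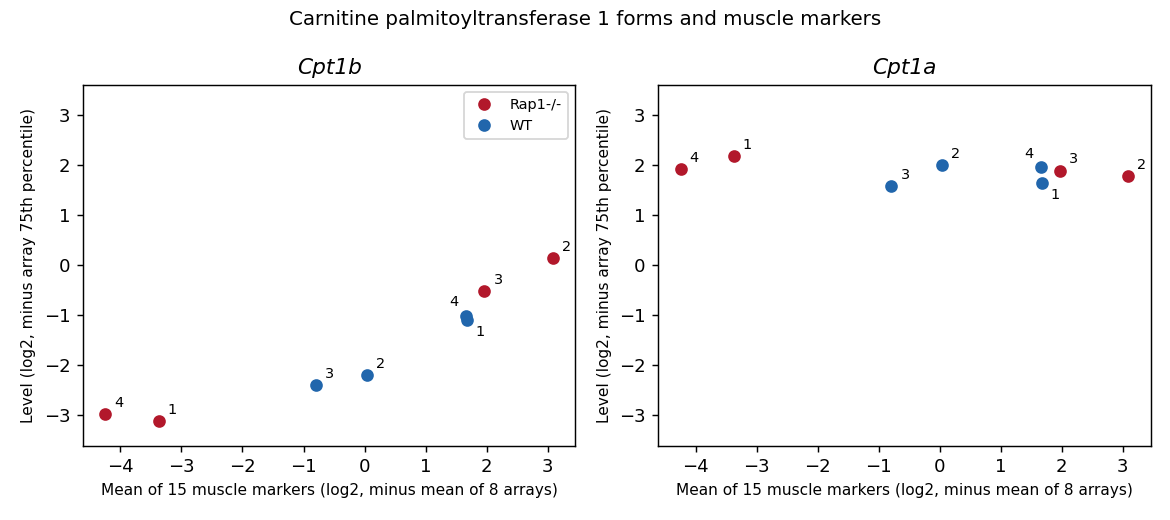
Level of Cpt1b and Cpt1a (log2 signal minus the array's 75th percentile, vertical axis) against the mean of 15 skeletal muscle markers on the same array (log2, centred on the mean of the 8 arrays, horizontal axis); each point is 1 array and numbers are replicates. Cpt1b rises along the axis from -3.10 to 0.14 while Cpt1a stays between 1.58 and 2.18.

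Brown fat also uses Cpt1b, so its markers were examined after the data were seen. The mean of the 5 measured brown fat markers was -0.87, 1.21, -0.12 and -0.33 in Rap1-/- and -0.12, -0.22, -0.84 and 1.28 in WT. Against it Cpt1b had r = 0.76 (exact permutation p = 0.0239, adjusted p = 0.310) and rho = 0.90 (adjusted p = 0.178), with r = 0.70 without WT replicate 4 and Rap1-/- replicate 2 and 0.95 and 0.56 within the slides. By r Acsl3 followed this mean more closely, at 0.83 (exact permutation p = 0.0093, adjusted p = 0.310), and Acaa1b ran against it at -0.76. Cox7a1, 1 of the 5 markers, was at 1.83, 4.02, 3.24 and 2.00 in Rap1-/-, high and low on the same arrays as the muscle markers. The muscle and brown fat relations of Cpt1b were thus not separated. Ucp1, which defines brown fat, was well above background on 3 of 4 arrays of each genotype, and Elovl3 was not bright enough to be tested.

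Unsaturated chains need auxiliary enzymes before they can enter the spiral. Decr1, the mitochondrial dienoyl-CoA reductase, read 6.80, 6.91, 6.89 and 7.14 in knockout fat and 7.16, 6.95, 7.02 and 7.08 in WT fat, a difference of -0.12 ± 0.10 with overlap from Rap1-/- replicate 4. Eci1, the mitochondrial enoyl-CoA isomerase, stood at 5.21, 5.18, 5.24 and 5.73 in the knockouts and at 5.55, 5.46, 5.35 and 5.37 in the WT mice. Its 3 lowest arrays were knockouts, yet its highest was Rap1-/- replicate 4, and the difference was -0.09 ± 0.14, or -0.22 without that array and -0.04 without Rap1-/- replicate 2.

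Among peroxisomal genes the lowest difference was that of Pex11a. PEX11A is a membrane protein that takes part in peroxisome elongation and division, and its gene is a known PPAR target. Levels were 5.0002, 5.41, 5.45 and 5.36 in Rap1-/- fat and 6.02, 5.46, 5.78 and 5.77 in WT fat. On this scaling every Rap1-/- array was below every WT array, though Rap1-/- replicate 3 and WT replicate 2 nearly met. The replicate 1 arrays of the genotypes marked the ends. With scaling to the E1A controls the genotypes overlapped for Pex11a too. The difference was -0.45 ± 0.15, a 1.37-fold lower mean (limma unadjusted p = 0.0154, adjusted p = 0.874; two-sided exact permutation p = 0.0286). It was -0.53 within slide 1 and -0.37 within slide 2. Quantile normalisation gave -0.37 (limma unadjusted p = 0.0223), the deposited values -0.36 (limma unadjusted p = 0.00909) and the fat cell covariate -0.32 ± 0.21 (limma unadjusted p = 0.177).

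The peroxisomal spiral had 5 of 6 genes with lower means and a median of -0.13. Ehhadh, the bifunctional enzyme that hydrates and then oxidises straight chains, was at 0.96, 1.00, 1.23 and 1.90 on the knockout arrays against 2.03, 1.59, 1.52 and 1.58 on the WT arrays. Of the knockout arrays, 3 were below every WT array, but replicate 4 was above 3 of the 4 WT arrays. The difference of -0.41 ± 0.22 was -0.83 within slide 1 and 0.01 within slide 2, -0.62 without Rap1-/- replicate 4 and -0.52 ± 0.33 with the fat cell covariate. Scp2, whose longer product is the thiolase for branched chains, read 7.12, 7.03, 7.07 and 7.46 in knockout fat and 7.52, 7.42, 7.33 and 7.15 in WT fat, overlapping, with a difference of -0.19 ± 0.13.

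The other members of this spiral had smaller differences. The thiolase Acaa1a was at -0.15 ± 0.08, with all 4 Rap1-/- arrays below the WT mean, and its near copy Acaa1b at -0.11 ± 0.12. Hsd17b4, the other bifunctional enzyme, which also takes branched chains, was at -0.05 ± 0.11. The oxidase Acox3 was at 0.03 ± 0.10, but its second probe gave -0.39 ± 0.21 and ran against the first across the arrays (r = -0.42), so the direction for Acox3 depends on the probe.

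Of the 5 genes that assist or leave the peroxisomal spiral, 4 had lower means. Decr2, the peroxisomal dienoyl-CoA reductase, stood at 1.26, 1.25, 1.46 and 1.20 in the knockouts and at 1.48, 1.43, 1.69 and 1.44 in the WT mice. Only Rap1-/- replicate 3 entered the WT range, and the difference was -0.22 ± 0.10. Eci2, an enoyl-CoA isomerase, was at -0.09 ± 0.08. Crot, which makes carnitine esters for export to mitochondria, had means of 2.10 ± 0.10 for the knockouts and 2.10 ± 0.20 for WT (SD, n = 4). Ech1, a dienoyl-CoA isomerase of both organelles, was at 0.11 ± 0.11.

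Much of the spread ran between arrays and not between genotypes. WT replicate 1 had the highest level for 19 of the 39 genes and was above the 8-array mean for 37. Rap1-/- replicate 1 had the lowest for 10 genes and WT replicate 3 for 9. Averaged over the 39 genes, each centred on its own mean, the arrays were at -0.15, -0.06, -0.04 and 0.01 in Rap1-/- and 0.20, 0.02, -0.07 and 0.09 in WT, so that WT replicate 3 fell below 3 of the 4 knockout arrays. The genotypes therefore overlapped on this average. Without WT replicate 1 the median difference was -0.06 and 26 genes had lower means, and without WT replicate 3 it was -0.14 with 36.

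The slides did not give the same picture. Within slide 1 the median over the 39 genes was -0.19 and 32 had lower means. Within slide 2 it was 0.00 and 19 had lower means. Over all features the medians were -0.05 and -0.03 on the same slides, and 59.6% and 57.6% had lower means. The means of 17 genes were lower on both slides, among them Etfb, Pex11a, Hadh, Acsl1, Decr2 and Acadvl, and 5 were higher on both. Another 15 were lower on slide 1 but higher on slide 2, among them Acot1, Crat, Ehhadh, Eci1 and Scp2, and 2 turned the other way, Cpt1b and Crot. The slide difference was not tested.

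Markers of the cells in fat were counted on the same arrays. Of 10 fat cell markers 9 had lower means in Rap1-/-, beside 59.9% of all features, with a median of -0.24. The exception was Lep at 0.63 ± 0.31, the largest absolute difference of the 10. Lep was also the most variable of them, with a range of 1.74 over the arrays, and is part of their mean. The mean of the 10 per array, each marker centred, ran from -0.1788 to 0.0194 in Rap1-/- and from 0.0241 to 0.1777 in WT, so on this scaling it narrowly separated the genotypes. With scaling to the E1A controls the genotypes overlapped on this mean. Of the 10 markers, 4 had an unadjusted limma p under 0.05, beside 4.98% of all features, and 0 passed after adjustment. All 8 mesothelium markers had higher means, with a median of 0.63, from 0.14 to 0.43 in Rap1-/- and from -1.06 to 0.25 in WT. Of these, 2, Krt8 and Upk1b, had an unadjusted limma p under 0.05. WT replicate 3 was the lowest array for all 8, and their mean was -1.06 there but -0.23, 0.25 and -0.17 on WT replicates 1, 2 and 4. For all 8 the difference was smaller within slide 1 than within slide 2, and for Wt1 it was -0.15 within slide 1. Of 10 fibroblast and preadipocyte markers 9 were higher (median 0.24, 0.10 to 0.18 in Rap1-/- and -0.54 to 0.29 in WT), as were 6 of 8 macrophage markers (median 0.16, -0.11 to 0.33 and -0.17 to 0.18). Of 7 endothelium markers 5 were lower, from -0.38 to 0.30 in Rap1-/- and from -0.18 to 0.25 in WT. With scaling to the E1A controls 5 of the 10 fat cell markers had lower means, with a median of -0.02, and 1 of the 7 endothelium markers did, while all 8 mesothelium markers stayed higher. Of all features 14.5% then had lower means. The part of these cells in the differences of the 39 genes was not tested. With the fat cell marker mean as a covariate the median of the 39 genes was -0.06 and 30 means were lower, the mitochondrial median being -0.14 and the peroxisomal one -0.05. Over all features the median was then -0.04, and 57.3% had lower means. With the mesothelium mean as the covariate the median of the 39 genes was -0.14 with 37 lower means, -0.12 for mitochondrial and -0.15 for peroxisomal genes. Over all features the median was then -0.01, and 53.5% had lower means. The mesothelium mean itself differed between the genotypes, at 0.30 in Rap1-/- and -0.30 in WT. Differences given with it therefore cannot fully tell it from the genotype.

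**Figure D4:**
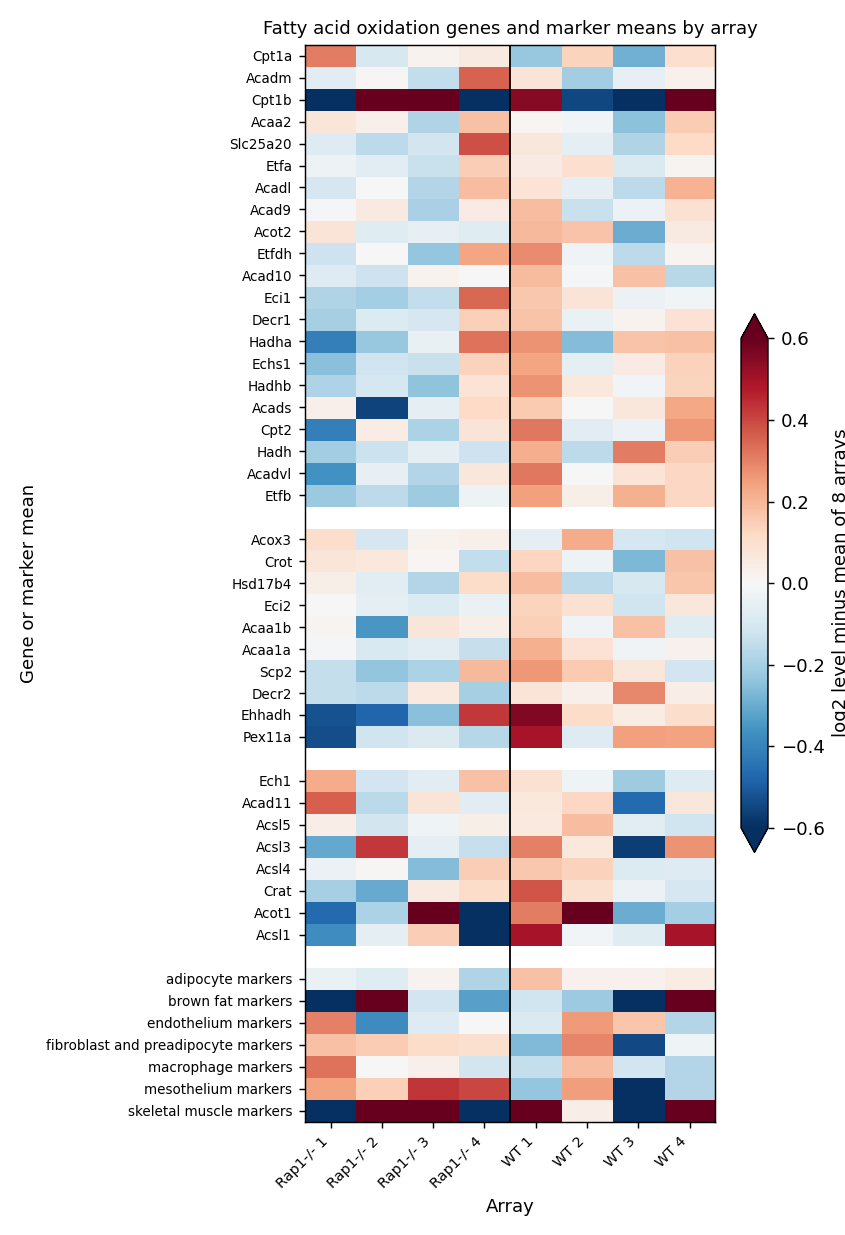
Level of the 39 genes, grouped from the top as mitochondrial, peroxisomal and both or elsewhere, and of 7 marker means (rows) on the 8 arrays (columns), as log2 level minus the mean of the 8 arrays. Colours stop at 0.6 in either direction. The column of WT replicate 1 is above the mean for 37 of the 39 genes, and the muscle marker mean runs from -4.25 to 3.09.

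Of all 39 genes, Acaa1a and Acsl1 followed the fat cell marker mean most closely by Pearson r, and Acaa1a and Pex11a by Spearman rho. Acaa1a had r = 0.90 (exact permutation p = 0.00377, adjusted p = 0.147) and rho = 0.90 (adjusted p = 0.178), with r = 0.61 without Rap1-/- replicate 4 and WT replicate 1. Acsl1 had r = 0.86 (exact permutation p = 0.00806, adjusted p = 0.157) and rho = 0.83 (adjusted p = 0.200), with r = 0.62 without the same arrays. Pex11a had r = 0.70 (exact permutation p = 0.0563, adjusted p = 0.673) and rho = 0.86 (adjusted p = 0.200), with r = 0.64 without them. No gene passed after adjustment, and 29 of 39 correlated positively. Within the slides r was 0.98 and 0.90 for Acaa1a and 0.88 and 0.90 for Acsl1.

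A wider list of 47 related genes, among them other thioesterases, peroxins, peroxisomal transporters and ketone body enzymes, was counted beside the 39. Of the 44 measured, 33 (75%) had a lower mean in Rap1-/-, beside 59.9% of all features, with a median of -0.08 beside -0.04. With scaling to the E1A controls 7 did, beside 14.5% of all features, and the median was 0.14 beside 0.19. Acot3, a peroxisomal thioesterase, was the 1 gene of the 44 with an unadjusted limma p under 0.05, beside 4.98% of all features, and 0 passed after adjustment. It was at -2.87, -3.23, -3.33 and -3.06 on the knockout arrays against -1.84, -2.75, -1.92 and -2.96 on the WT arrays, a difference of -0.75 ± 0.27, or a 1.69-fold lower mean (limma unadjusted p = 0.0216, adjusted p = 0.874). WT replicates 1 and 3 were the highest, and WT replicate 4 overlapped with the knockout arrays.

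Sequence upstream of the genes was read because PPAR receptors act through a repeat of the motif AGGTCA. RefSeq windows of 300 bases around the start (GRCm38.p6) were given for 33 of the 39 genes, in 34 windows, and not for Decr1, Cpt1b, Hsd17b4, Acad9, Acaa2 and Crat. The PPAR response element known as direct repeat 1, a pair of these motifs 1 base apart searched on both strands, was in 0 of the 34 and in 0.0396% of all 32851 windows. A looser form with any base at the fourth position of each motif was in 0 of the 34 and 0.381% of all, and TCAAGGTCA, the element of the oestrogen-related receptors, in 0 and 0.423%. The single motif AGGTCA, which is part of direct repeat 1 and of TCAAGGTCA, was in 5 of the 34 windows (14.7%) beside 16.3% of all. A match is no more than letters in a window, and elements farther away were not searched.

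The 250 bases before the start are shown for the 3 genes with the smallest p, none of which held AGGTCA on either strand, at chr7:43443822-43444071 (plus strand) for Etfb, chr3:131272102-131272351 (minus strand) for Hadh and chr7:79743132-79743381 (minus strand) for Pex11a.
Etfb: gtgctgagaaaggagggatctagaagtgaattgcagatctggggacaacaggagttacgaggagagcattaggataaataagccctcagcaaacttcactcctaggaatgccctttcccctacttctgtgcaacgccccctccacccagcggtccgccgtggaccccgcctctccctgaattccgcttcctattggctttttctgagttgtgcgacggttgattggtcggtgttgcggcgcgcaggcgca
Hadh: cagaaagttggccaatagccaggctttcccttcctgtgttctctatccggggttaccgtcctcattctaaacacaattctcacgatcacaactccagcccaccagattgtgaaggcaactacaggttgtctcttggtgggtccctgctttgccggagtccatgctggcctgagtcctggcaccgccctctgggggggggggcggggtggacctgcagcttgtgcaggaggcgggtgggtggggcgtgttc
Pex11a: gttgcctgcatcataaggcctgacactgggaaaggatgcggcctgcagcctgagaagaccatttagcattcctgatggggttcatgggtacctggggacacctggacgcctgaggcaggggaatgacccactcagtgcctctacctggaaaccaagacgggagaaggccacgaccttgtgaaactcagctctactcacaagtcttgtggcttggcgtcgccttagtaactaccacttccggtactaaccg
For comparison, 40 bases around each AGGTCA, in capitals and as TGACCT where it lies on the other strand, come from chr3:153944854-153944893 for Acadm, chr11:70015493-70015532 for Acadvl, chr7:140116482-140116521 for Echs1 and chr4:108118634-108118673 for Scp2 (minus strand) and from chr19:3323190-3323229 for Cpt1a (plus strand).
Acadm: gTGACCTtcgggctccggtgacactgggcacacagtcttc
Acadvl: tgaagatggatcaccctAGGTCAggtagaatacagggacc
Cpt1a: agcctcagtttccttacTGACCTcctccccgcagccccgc
Echs1: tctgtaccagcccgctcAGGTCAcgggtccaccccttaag
Scp2: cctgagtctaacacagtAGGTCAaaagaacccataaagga
Among these 5 genes the differences ran from -0.26 for Acadvl to 0.14 for Cpt1a.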

How the data were processed

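Total RNA of gonadal white fat was labelled with Cy3 by the authors and hybridised to one-colour Agilent mouse arrays. The deposited scanner files hold processed signals in linear intensity units, background-corrected by Feature Extraction 10.7.3.1 per the file headers (the study's methods name another version) with no scaling between arrays, and flags of detection scored 0 or 1. Values in the deposited series table are log2. They matched normexp correction with an offset of 50 and quantile normalisation and served as an alternative.

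Groups came from the sample labels. Each log2 signal was taken relative to the 75th percentile of its array, spots of a probe were averaged, and probes well above background on at least 4 arrays were kept. Probes were named through RefSeq accessions (GRCm38.p6), which named 26056 of 55681 probes. The brightest probe stood for a gene. Genotypes were compared with limma 3.58.1 (lmFit, eBayes) in R 4.3.3 without covariates, with Benjamini-Hochberg adjustment over all 25065 features. Single genes also had a two-sided exact permutation test over all 70 assignments of arrays, and correlations with marker means one over all 40320 pairings, adjusted over the 39 genes for each marker mean. The script was tested on simulated data.

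The genes, the related list and the marker lists (skeletal muscle, fat cell, brown fat, mesothelium, fibroblast and preadipocyte, macrophage, endothelium) were chosen with earlier results of these data known. Values on every array are given for genes with an unadjusted p under 0.05, the 2 largest differences in each functional group, Cpt1a and Cpt1b. Upstream sequences came from RefSeq windows. Figures were drawn with matplotlib in Python.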

Additional observations from a re-analysis of the deposited data

Results flagged for a closer look

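In 6 of the 78 sets of 4 arrays, 1 array stood apart from the other 3 by Dixon's test, where chance alone flags about 1 in 20 sets. On Rap1-/- replicate 4, Slc25a20 was at 1.42 and Eci1 at 5.73, each far above the other knockout arrays. Rap1-/- replicate 1 was high for Acot2 at -0.44. Acaa1b on Rap1-/- replicate 2 was low at 2.64. WT replicate 1 was high for Ehhadh at 2.03, and WT replicate 3 was low for Acad11 at 4.74.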

How the results depend on the processing

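No gene of the 39 passed at an adjusted p of 0.05 under any alternative run. The number at an unadjusted p under 0.05, 3 as reported, was 1 with quantile normalisation, 0 with scaling to the E1A controls, 1 with the deposited values, 7 with a trended robust variance, 1 within slide 2, 1 with the fat cell marker covariate and 0 with the mesothelium covariate, these covariates having been added after the data were seen. Leaving out single arrays gave 2 to 8, with 8 without Rap1-/- replicate 4 and 5 without WT replicate 2. The share of all features at this threshold, 4.98% as reported, was not counted under the alternatives. A rise or fall in these counts therefore cannot be set against all features. Lower means, 31 as reported, numbered 10 with E1A scaling and 19 within slide 2, beside 14.5% and 57.6% of all features. Without single arrays they numbered 26 to 36. The median of the 39 genes was 0.13 with E1A scaling, that of the mitochondrial genes 0.13 and that of the peroxisomal genes 0.0907. That scaling moved the median of all features by the same amount, to 0.19, so the order of the medians could not change. Within slide 2 the median was 0.0024, and the peroxisomal median -0.0274. Without single arrays the median of the 39 genes ran from -0.14 to -0.0557, the mitochondrial one from -0.15 to -0.0453 and the peroxisomal one from -0.16 to -0.0962. In the other alternatives the medians stayed below 0, and at least 22 genes, the number with median scaling, had lower means. The values over all features moved as well. With normexp correction 27 genes had lower means beside 66.8% of all features, and the median was -0.0595 beside -0.0579, so the 39 genes lay near all features. With median scaling 44.4% of all features had lower means, and the median was -0.0325 for the 39 genes beside 0.0223. The causes of these shifts were not tested.

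Samples with the same replicate number did not deviate together (correlations -0.22, -0.13, -0.13 and -0.16), and the labels name no pairing. Whether the numbers pair the mice in some way is not known. With the replicate block 3 genes had an unadjusted p under 0.05, 31 had lower means and the median was -0.09.

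Some genes with small differences changed sign. With normexp correction this gave Slc25a20 at -0.0315, Crot at 0.013, Acadl at 0.008, Hsd17b4 at 0.0021, Etfa at 0.0038 and Acsl4 at 0.0019. Quantile normalisation put Crot at 0.0133, Hsd17b4 at 0.0376, Decr1 at 0.0081, Etfa at 0.0729 and Acsl3 at 0.0171. The deposited values put Slc25a20 at -0.0329, Crot at 0.0061, Acadl at 0.0157, Hsd17b4 at 0.0322, Eci2 at 0.0204, Decr1 at 0.0022, Etfa at 0.0614, Acsl3 at 0.0439 and Acsl4 at 0.0017. The mean of a gene's probes put Acox3 at -0.18 and Etfa at 0.0427. Without single arrays the differences ran from -0.53 to 0.55 for Cpt1b, -0.23 to 0.0609 for Acsl3, -0.10 to 0.0777 for Slc25a20, -0.0911 to 0.0572 for Crot, -0.11 to 0.0201 for Acadl, -0.03 to 0.14 for Acadm, -0.11 to 0.0044 for Acad9, -0.0316 to 0.18 for Acad11, -0.0264 to 0.12 for Acaa2, -0.0095 to 0.10 for Acox3, -0.11 to 0.0047 for Hsd17b4, -0.15 to 0.0251 for Etfdh, -0.13 to 0.0056 for Acsl4 and -0.0762 to 0.0252 for Acsl5. Others kept their sign without single arrays but moved widely, from -0.31 to -0.0831 for Acads, -0.16 to -0.0453 for Acad10, -0.17 to -0.0033 for Acot2, -0.30 to -0.14 for Cpt2, -0.23 to -0.0705 for Crat, -0.0944 to -0.0012 for Etfa, -0.18 to -0.0702 for Decr1, -0.14 to -0.0557 for Eci2, 0.0553 to 0.17 for Ech1, -0.28 to -0.13 for Scp2 and -0.16 to -0.0146 for Acaa1b. None of these genes was called. All 39 were well above background on every array, so brightness did not limit which could be measured.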
